A study of Mus musculus with 5 samples.

Results

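A set of 10 genes known from mast cells, basophils and eosinophils was followed in LSK cells, a mouse bone marrow population sorted as lacking lineage markers and carrying Sca1 and cKit, in which blood stem cells and early progenitors are found. They were chosen by name, as Il1rl1, Ms4a2, Fcer1a, Fcer1g, Cpa3, Mcpt8, Prss34, Hdc, Epx and Prg2, and all 10 were found among the 24210 named genes of the count table and passed the filter on low counts. The design text describes a germ-line knockout of 1 gene. LSK cells of C57BL/6 mice aged 12 months gave 3 libraries with KO in the title and 2 with WT. The genotype given for those with KO is heterozygous for the targeted gene and that for WT is wild type, so the libraries are called KO-labelled and WT after their titles.

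Mast cells, basophils and eosinophils carry granules filled with proteases, histamine or toxic basic proteins and release them on contact with allergens or parasites. They arise in the bone marrow from myeloid progenitors, under the transcription factors Gata1 and Gata2 and growth factors such as interleukin 3, interleukin 5 and stem cell factor. Mast cells and basophils bind IgE through a receptor with an alpha chain (Fcer1a), a beta chain (Ms4a2) and a gamma chain (Fcer1g), and respond to the alarm cytokine interleukin 33 through the receptor encoded by Il1rl1.

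Total counts, with 1 transcript row kept for each gene, ran from 36060320 to 39691066 over the KO-labelled libraries and were 29964556 and 38674416 for WT, so that a floor of 3 counts equalled 0.0760 to 0.1 CPM, that is, counts scaled to a common library size (TMM-adjusted). LSK genes were abundant, with Kit at 1086 to 1144 CPM in KO-labelled libraries and 1205 to 1227 CPM in WT libraries and Ly6a, which encodes Sca1, at 90.5 to 104.6 and 74.9 to 82.0 CPM. Of the lineage genes, Itgam stood at 38.7 to 85.9 CPM in KO-labelled libraries and 91.7 to 96.4 CPM in WT libraries. Nothing in the labels ties each library to its own animal, and p-values therefore reflect only the variation among these samples, which may be technical.

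Il1rl1 was the 1 member that passed the test, and it rose in the KO-labelled libraries. Its level was 11.5, 10.2 and 12.7 CPM in KO-labelled libraries 1 to 3, against 6.30 and 4.81 CPM in WT libraries 1 and 2. Every KO-labelled library lay above both WT libraries. The means were 11.5 ± 1.25 CPM (SD, n = 3) in KO-labelled libraries and 5.56 ± 1.06 CPM (SD, n = 2) in WT libraries, a log2 fold change of 1.05 ± 0.24 (SE), or 2.07-fold (edgeR quasi-likelihood test, two-sided, Benjamini-Hochberg adjusted p = 0.0469 over all 14565 genes tested). Among all genes tested 1.97% passed in either direction, 0.79% as higher and 1.18% as lower, so 1 of 10 members is to be read beside that share. In bulk RNA, a change in the number of cells of a type and a change in RNA per cell cannot be told apart. The call lay close to the threshold. It was lost when any of 4 libraries was left out, the adjusted p being 0.0534 for KO-labelled library 2, 0.206 for KO-labelled library 3, 0.256 for WT library 1 and 0.395 for WT library 2, while the log2 fold change stayed between 0.87 and 1.26. It was also lost without a composition factor in the scaling (adjusted p = 0.0507). Over all alternatives the adjusted p ran from 0.00446, with DESeq2, to 0.395.

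**Figure D1:**
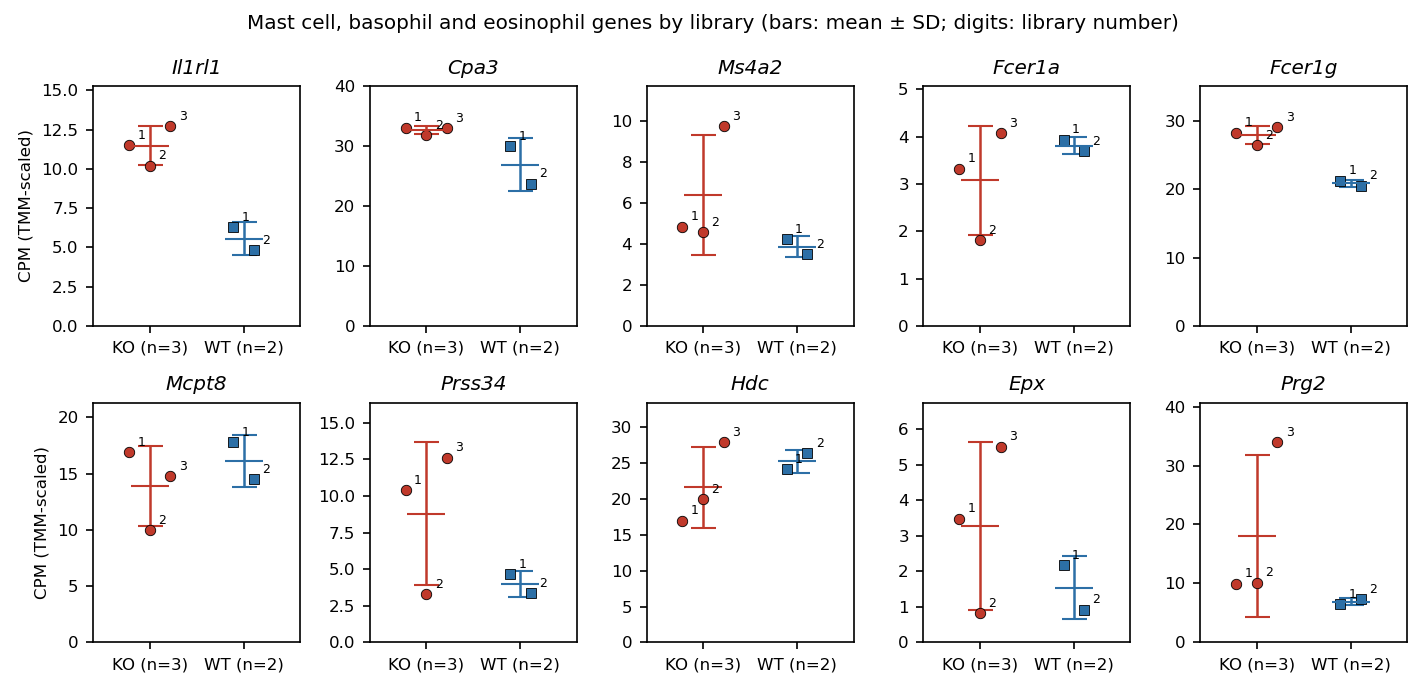
Level of each of the 10 genes in CPM (y axis, from 0), with 1 point for each library, KO-labelled (red circles) left of WT (blue squares), and bars for the mean and SD. Il1rl1, Cpa3, Ms4a2, Fcer1g and Prg2 had every KO-labelled point above both WT points. KO-labelled library 3 was the highest for 8 of the 10 genes, all but Cpa3 and Mcpt8.

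Il1rl1 encodes a membrane receptor and a shorter soluble form that binds interleukin 33 as a decoy, made by alternative 3′ ends. The table held 3 RefSeq rows for the gene. The longest had 416, 399 and 502 counts in KO-labelled libraries 1 to 3, against 189 and 188 in WT libraries 1 and 2, and was the row kept. The 2 shorter rows held the same counts as each other, 138, 142 and 149 in KO-labelled libraries and 44 and 99 in WT libraries. The shorter rows thus stood at 33.2%, 35.6% and 29.7% of the longest in KO-labelled libraries, between the 23.3% and 52.7% of WT libraries 1 and 2. Rows of 1 gene share exons and reads, so these shares are not the share of the soluble form, and no test was made on them. With the rows summed, the log2 fold change was 0.99 (edgeR adjusted p = 0.031). That sum counts reads shared by the rows more than once, so its adjusted p is not separate support for the call.

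RefSeq lists start sites for Il1rl1 at separate places on the plus strand of chromosome 1. Their upstream 250 bases are shown, as the gene that passed, with the letters GATAA, the core that GATA factors bind, in capitals on either strand (TTATC where it lies on the other strand). The first lies at chr1:40429320-40429569 and the second at chr1:40439379-40439628 (GRCm38.p6, plus strand).
Il1rl1 upstream start: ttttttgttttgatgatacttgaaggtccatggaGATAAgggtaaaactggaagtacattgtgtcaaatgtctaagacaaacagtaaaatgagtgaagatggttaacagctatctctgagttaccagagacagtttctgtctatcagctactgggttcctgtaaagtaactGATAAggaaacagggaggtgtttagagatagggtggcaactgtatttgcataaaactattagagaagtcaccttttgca
Il1rl1 downstream start: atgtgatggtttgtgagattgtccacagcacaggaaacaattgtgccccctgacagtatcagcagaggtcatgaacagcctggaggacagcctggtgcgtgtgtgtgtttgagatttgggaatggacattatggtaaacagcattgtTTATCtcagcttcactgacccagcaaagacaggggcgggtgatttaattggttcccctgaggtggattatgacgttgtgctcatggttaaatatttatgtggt
The upstream window held 2 matches, 216 and 79 bases before its start, and the downstream window held 1, at 103 bases. Of all 32851 RefSeq promoter windows of this length, 22.6% held GATAA on either strand. A match is a run of letters and not evidence of binding.

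Genes that lie beside Il1rl1 on chromosome 1 encode related receptors, and were looked at after their values could be seen. Il1r1, the interleukin-1 receptor, stood at 61.1, 84.2 and 62.4 CPM in KO-labelled libraries, against 105 and 108 CPM in WT libraries. Il18r1, a chain of the interleukin-18 receptor, stood at 16.7, 16.1 and 11.6 CPM in KO-labelled libraries and 11.3 and 10.5 CPM in WT libraries. Il1r1 fell (log2 fold change -0.62 ± 0.13, edgeR adjusted p = 0.0292), and Il18r1 did not pass (0.45 ± 0.21, adjusted p = 0.385). The call of Il1r1 was lost with rows summed (adjusted p = 0.0647) and when KO-labelled library 3 (0.146), WT library 1 (0.387) or WT library 2 (0.352) was left out. Il1rl2 (-0.51 ± 0.23, adjusted p = 0.361) and Il18rap (-0.37 ± 0.13, adjusted p = 0.217) did not pass either, although Il18rap passed without KO-labelled library 2 (-0.52, adjusted p = 0.0349). Of the 4 neighbours, Il18r1 had a log2 fold change above 0, like Il1rl1, and the others had one below 0.

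None of the 3 chains of the IgE receptor passed the test, and they differed in level. Fcer1g, the signalling chain that several other Fc receptors also use, had 28.3, 26.4 and 29.0 CPM in KO-labelled libraries 1 to 3, against 21.2 and 20.5 CPM in WT libraries 1 and 2. The groups did not overlap and the spread within each was small, but the log2 fold change of 0.42 ± 0.14 did not pass over all genes (edgeR adjusted p = 0.195, unadjusted p = 0.0119). Ms4a2, the beta chain, which amplifies the signal, had 4.85, 4.56 and 9.75 CPM in KO-labelled libraries, against 4.24 and 3.50 CPM in WT libraries. KO-labelled library 3 stood well above the rest, and the other KO-labelled libraries lay just above WT. Its log2 fold change of 0.72 ± 0.37 did not pass (adjusted p = 0.42) and was 0.29 without KO-labelled library 3. Fcer1a, the chain that binds IgE, had 3.32, 1.82 and 4.08 CPM in KO-labelled libraries, against 3.94 and 3.68 CPM in WT libraries. These ranges overlapped, and the log2 fold change of -0.31 ± 0.41 did not pass (adjusted p = 0.806). It was -0.043 without KO-labelled library 2 and -0.56 without KO-labelled library 3.

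The promoter of Ms4a2 is shown because it held the most GATAA matches in a single window among the members. Its upstream 250 bases lie at chr19:11623720-11623969 (GRCm38.p6, minus strand).
Ms4a2: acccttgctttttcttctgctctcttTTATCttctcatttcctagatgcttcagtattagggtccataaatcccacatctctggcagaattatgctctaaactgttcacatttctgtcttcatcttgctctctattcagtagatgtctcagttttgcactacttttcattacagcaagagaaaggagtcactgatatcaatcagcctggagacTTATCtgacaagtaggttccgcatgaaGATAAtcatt
The 3 matches, in capitals as above, lay 224, 37 and 10 bases before the start. Of the 9 members with a promoter entry, 5 held GATAA within 250 bases of a start, namely Il1rl1, Cpa3, Ms4a2, Fcer1a and Prss34, and Fcer1g, Mcpt8, Hdc and Epx held none in this window. The E-box letters CANNTG, which read the same on either strand when N is any base, were found in 8 of the 9 members. Counted by window, 9 of the 10 windows of these members held CANNTG, against 66.2% of all windows, and 6 held GATAA, against 22.6%.

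None of the granule enzymes passed the test, and their values differed in direction. Cpa3, the mast cell carboxypeptidase that basophil and mast cell progenitors also make, had 33.06, 31.83 and 33.04 CPM in KO-labelled libraries, against 30.0 and 23.7 CPM in WT libraries. The groups did not overlap, yet the lowest KO-labelled library lay only just above WT library 1, and the log2 fold change of 0.28 ± 0.14 did not pass (edgeR adjusted p = 0.414), being 0.46 without WT library 1 and 0.12 without WT library 2. Mcpt8, a serine protease that marks mouse basophils, had 16.9, 9.95 and 14.8 CPM in KO-labelled libraries and 17.8 and 14.5 CPM in WT libraries, which overlapped (-0.22 ± 0.23, adjusted p = 0.745). With 1 library left out its log2 fold change lay between -0.38, without KO-labelled library 1, and -0.028, without KO-labelled library 2; it was -0.36 without WT library 2 and -0.060 without WT library 1. Prss34, a tryptase-like protease of mouse basophils, had 10.4, 3.28 and 12.6 CPM in KO-labelled libraries, against 4.64 and 3.38 CPM in WT libraries. KO-labelled libraries 1 and 3 were high, and library 2 was the lowest of all 5. Its log2 fold change of 1.13 ± 0.48 did not pass (adjusted p = 0.326) but passed without KO-labelled library 2 (1.52, adjusted p = 0.0152); the adjusted p without any of the other libraries ran from 0.396 to 0.693.

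The upstream 250 bases of Prss34 are shown because this gene had the widest spread of the basophil proteases. They lie at chr17:25298144-25298393 (GRCm38.p6, plus strand).
Prss34: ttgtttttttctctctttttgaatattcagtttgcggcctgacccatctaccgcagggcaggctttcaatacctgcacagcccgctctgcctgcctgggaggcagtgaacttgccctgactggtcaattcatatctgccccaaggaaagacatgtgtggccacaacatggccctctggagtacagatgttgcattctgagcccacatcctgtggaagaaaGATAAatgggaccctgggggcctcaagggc
The 1 match lay 30 bases before the start.

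Hdc, the enzyme that makes histamine, had 16.97, 19.99 and 27.9 CPM in KO-labelled libraries, against 24.1 and 26.4 CPM in WT libraries. The groups overlapped, since KO-labelled library 3 was the highest of all and the other KO-labelled libraries were the lowest. The log2 fold change was -0.23 ± 0.20 (edgeR adjusted p = 0.682), -0.45 without KO-labelled library 3 (adjusted p = 0.441) and -0.079 without KO-labelled library 1.

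The eosinophil granule genes varied most. Prg2, the major basic protein, had 9.97, 10.2 and 33.9 CPM in KO-labelled libraries 1 to 3, against 6.504 and 7.32 CPM in WT libraries 1 and 2. KO-labelled library 3 held 1339 counts (exact Poisson 95% interval 1268 to 1413, counting error only), against 397 (359 to 438) in the next highest library. All KO-labelled libraries lay above WT, and the log2 fold change of 1.38 ± 0.62 did not pass (edgeR adjusted p = 0.411). Without KO-labelled library 3 it was 0.55 ± 0.28 (adjusted p = 0.521). Epx, the eosinophil peroxidase, was the least abundant member, at 3.49, 0.819 and 5.52 CPM in KO-labelled libraries and 2.17 and 0.921 CPM in WT libraries, from 32 to 218 counts. It was the 1 member under 1 CPM in any library, namely in KO-labelled library 2 and WT library 2, and no member averaged under 1 CPM. The groups overlapped, and its log2 fold change of 1.09 ± 0.70 did not pass (adjusted p = 0.548). Leaving out KO-labelled library 3 gave 0.49, leaving out WT library 1 gave 1.83 and leaving out WT library 2 gave 0.60.

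**Figure D2:**
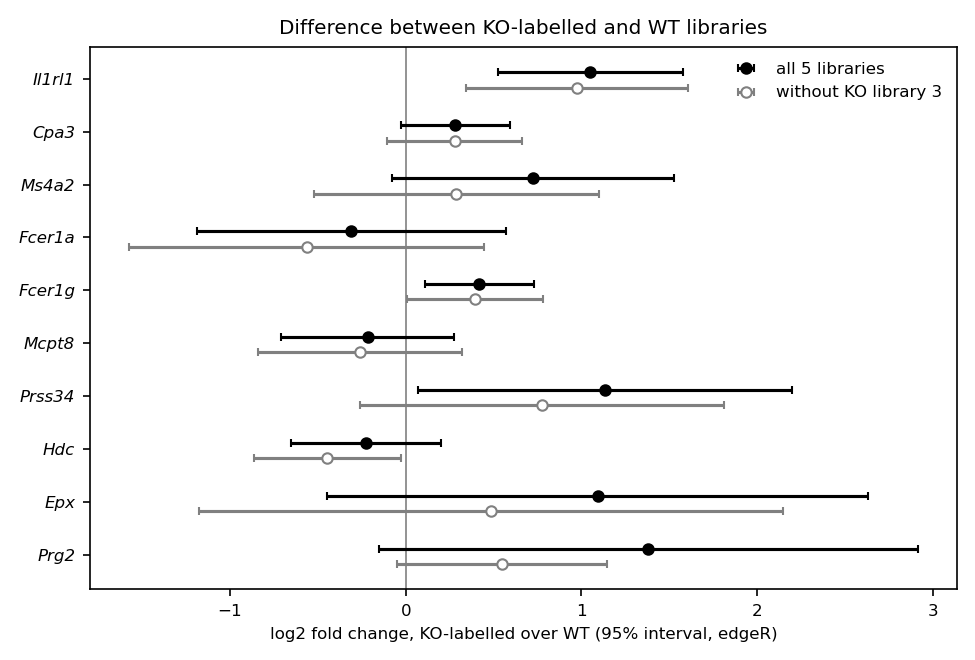
Log2 fold change of KO-labelled over WT libraries (x axis) for each of the 10 genes with its 95% interval from edgeR, for all 5 libraries (filled) and without KO-labelled library 3 (open). Il1rl1 lay at 1.05 and 0.97, while Prg2 lay at 1.38 and 0.55 and Ms4a2 at 0.72 and 0.29.

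Over the members, 7 of 10 had a log2 fold change above 0, as did 50.1% of all genes tested, and the median was 0.57 against 0.001 over all genes. Without 1 library in turn the median lay between 0.34, without KO-labelled library 3, and 0.69, without KO-labelled library 2, with 7 of 10 above 0 each time. Of the members, 5 had every KO-labelled library above both WT libraries, as did 16.5% of all genes tested, and 0 had every KO-labelled library below, as did 16.3%. At an unadjusted p under 0.05 in edgeR there were 3 members, Il1rl1, Fcer1g and Prss34 (0.039 for Prss34), and 2007 genes in all. The members are known from overlapping cell types and are not independent of each other.

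KO-labelled library 3 was the highest of the 5 libraries for 8 of 10 members, the others being Cpa3 and Mcpt8, and for 15.3% of all genes tested. Its excess differed between members. Prg2 stood at 3.37 times the mean of KO-labelled libraries 1 and 2, Epx at 2.56 times and Ms4a2 at 2.07 times, ratios that were above those of 98.5%, 97.7% and 96.8% of all genes. Cpa3, at 1.02 times, and Fcer1g, at 1.06 times, were nearly level with the other KO-labelled libraries. Summed over the members, the level was 139, 119 and 183 CPM in KO-labelled libraries 1 to 3, against 121 and 109 CPM in WT libraries 1 and 2. Prg2 made up 18.5% of that sum in KO-labelled library 3, and 5.38% to 8.53% in the other libraries.

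**Figure D3:**
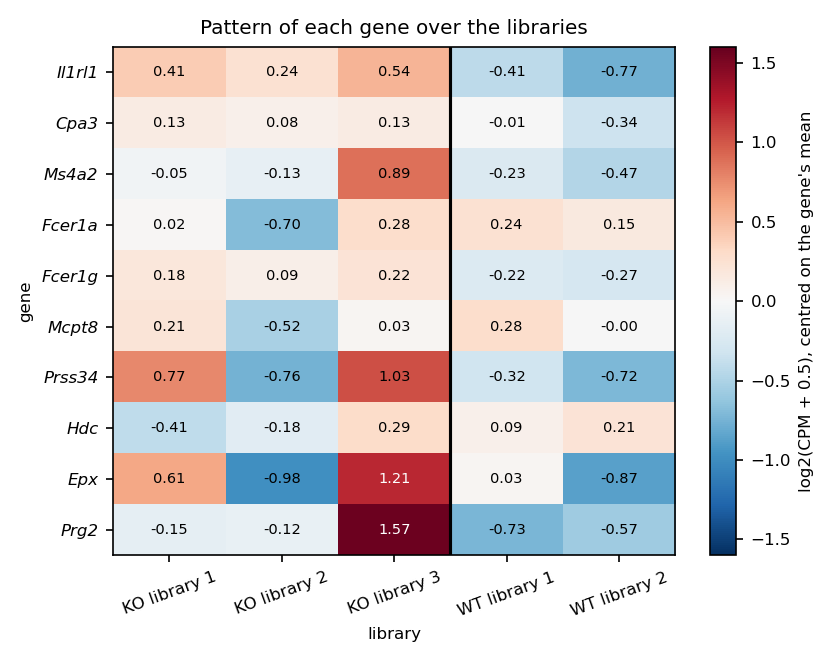
Level of each gene in each library as log2(CPM + 0.5), centred on the gene's mean over the 5 libraries (colour and printed value), with KO-labelled libraries left of WT. Prg2 reached 1.57 in KO-labelled library 3, and Prss34 and Epx shared a low value in KO-labelled library 2 (-0.76 and -0.98).

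The spread between libraries of a group was estimated by edgeR as a biological coefficient of variation, drawn towards that of genes of like level. This coefficient was 51.2% for Epx, 43.4% for Prg2, 35.3% for Prss34, 31.8% for Fcer1a and 28.5% for Ms4a2. The median was 12.7% over all genes, whatever their level. For Fcer1g it was 11.6%, for Cpa3 11.7% and for Il1rl1 18.6%. The part of low counts in these values was not tested. The 95% intervals of the log2 fold change of Il1rl1, Fcer1g and Prss34 (0.069 to 2.20 for Prss34) did not include 0, and those of the other members did.

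Levels can be set beside each other only per length of transcript. Per kilobase, Fcer1g was the most abundant, at 41.4 CPM in KO-labelled libraries and 31.0 CPM in WT libraries. In KO-labelled libraries it was followed by Cpa3 (22.5), Prg2 (21.5), Mcpt8 (16.6), Hdc (9.03), Prss34 (7.18), Ms4a2 (6.32), Fcer1a (3.08), Il1rl1 (2.17) and Epx (1.22 CPM per kilobase). Of these neighbours in the order, Fcer1g and Cpa3, Mcpt8 and Hdc, and Ms4a2 and Fcer1a did not overlap between libraries, and the others did. In WT libraries the order was Fcer1g, Mcpt8 (19.3), Cpa3 (18.5), Hdc (10.6), Prg2 (8.25), Ms4a2 (3.83), Fcer1a (3.82), Prss34 (3.28), Il1rl1 (1.05) and Epx (0.574 CPM per kilobase), with overlap between Mcpt8 and Cpa3, Ms4a2 and Fcer1a, and Fcer1a and Prss34. Il1rl1 was thus 1 of the least abundant members in both groups, its 5302-base transcript being the longest.

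The pattern of Prss34 over the 5 libraries was nearest to that of Epx. The root-mean-square distance between their centred log2 profiles was 0.22, and no other gene of 12729 with at least 1 CPM lay nearer to either. Fcer1g and Cpa3 were each other's nearest member (0.11), although 3.39% and 4.71% of all genes lay nearer to them. Of all genes, those nearest to Il1rl1 were 2310034G01Rik (0.076), Cdh1 (0.0999), Ide (0.11), L1cam (0.13) and Tpt1 (0.14). Those nearest to Cpa3 were Srsf1 (0.020), B3galnt2 (0.022), Cryl1 (0.022), Bub1 (0.023) and Gm12359 (0.027). For Prg2, looked at after its values were seen, they were Gm10684 (0.28), Pou2af1 (0.3), Hoxc6 (0.31), Mexis (0.32) and Gbp11 (0.33). These distances rest on 5 libraries and describe likeness of level only.

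Other genes of these cells were taken from 7 lists of 112 genes in all, of which 97 were tested. Over the union, 1 rose and 4 fell, and 13 had every KO-labelled library above both WT libraries and 35 every one below. Among all genes tested, 0.79% rose and 1.18% fell, and 16.5% had every KO-labelled library above both WT libraries and 16.3% every one below. The mature mast cell proteases and receptor were at or near 0: Tpsab1 and Mrgprb2 had 0 counts in every library, and Cma1, Tpsb2 and Mcpt4 reached at most 0.128 CPM in KO-labelled libraries and 0.358 CPM in WT libraries.

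Of 13 tested mast cell granule and surface genes, 0 rose and 1 fell (median log2 fold change -0.03), beside 0.79% and 1.18% of all genes. In 1 every KO-labelled library lay above both WT libraries and in 4 every one lay below, beside 16.5% and 16.3% of all genes. Ctsg, cathepsin G, which neutrophil and mast cell granules both hold, fell to 254, 223 and 271 CPM in KO-labelled libraries, against 411 and 382 CPM in WT libraries (log2 fold change -0.67 ± 0.09, edgeR adjusted p = 0.00328). With WT library 1 left out its adjusted p was 0.208, and with WT library 2 left out 0.097. Srgn, the proteoglycan on which granule proteases are packed, was the most abundant, at 542 to 579 CPM in KO-labelled libraries and 641 to 654 CPM in WT libraries (-0.21 ± 0.07, adjusted p = 0.203).

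Of 11 tested basophil genes, 0 rose and 0 fell (median -0.09). The most abundant were the leukocyte genes Ptprc, at 337 to 365 CPM in KO-labelled libraries and 405 to 440 CPM in WT libraries, and Itgb2, at 51.3 to 62.0 and 57.5 to 62.0 CPM. Cd200r3, which marks mouse basophils and mast cells, had 0.360, 0.230 and 0.684 CPM in KO-labelled libraries, against 0.200 and 0.102 CPM in WT libraries, a difference that did not pass (1.48 ± 1.4, edgeR adjusted p = 0.71). Il4, a cytokine that basophils secrete, had 0.305, 0.154 and 0.177 CPM in KO-labelled libraries, against 0.867 and 1.64 CPM in WT libraries (-2.55 ± 1.02, adjusted p = 0.288, unadjusted p = 0.0276). Cd200r1, a surface receptor of myeloid cells, had 10.4 to 11.1 CPM in KO-labelled libraries and 12.0 to 12.3 CPM in WT libraries (-0.18 ± 0.20, adjusted p = 0.75). Over the list, 2 genes had every KO-labelled library above both WT libraries and 3 every one below, beside 16.5% and 16.3% of all genes.

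Of 7 tested eosinophil genes, 0 rose and 0 fell, while the log2 fold change of all 7 was positive (median 1.16), as it was for 50.1% of all genes. In 2 every KO-labelled library lay above both WT libraries and in 0 every one lay below, beside 16.5% and 16.3% of all genes. Several were near the floor: Alox15, Prg3 and Ear2 averaged 0.694, 0.813 and 0.451 CPM. Their log2 fold changes were imprecise (0.29 ± 1.02, 1.51 ± 1.46 and 1.54 ± 1.51). Without KO-labelled library 3 the median was 0.57 with 5 above 0, and without WT library 1 it was 0.35 over 8 genes. Il5ra, the receptor for the eosinophil growth factor interleukin 5, had 0.997, 1.53 and 3.39 CPM in KO-labelled libraries, against 0.800 and 0.281 CPM in WT libraries (1.88 ± 0.78, edgeR adjusted p = 0.304). As with Prg2, KO-labelled library 3 was the highest. Siglecf, a surface lectin of eosinophils, had 6.70, 8.78 and 10.001 CPM in KO-labelled libraries and 8.17 and 7.96 CPM in WT libraries (0.08 ± 0.25, adjusted p = 0.936). Cebpe, a transcription factor of granulocyte maturation, had 0.997, 2.84 and 4.25 CPM in KO-labelled libraries and 2.74 and 2.51 CPM in WT libraries (0.04 ± 0.54, adjusted p = 0.988). Il5ra, Cd200r3, Il4 and Cd200r1 were chosen after their values were seen.

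Of 11 growth factor receptor genes tested, 0 rose and 2 fell (median -0.32), beside 0.79% and 1.18% of all genes. In 1 every KO-labelled library lay above both WT libraries and in 6 every one lay below, beside 16.5% and 16.3% of all genes. Csf2rb, the chain that the receptors for interleukin 3, interleukin 5 and GM-CSF share, had 45.7, 46.2 and 56.3 CPM in KO-labelled libraries, against 106 and 102 CPM in WT libraries (log2 fold change -1.07 ± 0.11, edgeR adjusted p = 4.49e-04). Csf2rb2, its interleukin-3-specific copy in the mouse, had 9.69, 10.3 and 12.2 CPM in KO-labelled libraries and 27.7 and 22.5 CPM in WT libraries (-1.23 ± 0.18, adjusted p = 0.00434). These near-identical copies may share reads, so their separate values are uncertain. Neither call held when WT library 1 (adjusted p = 0.0908 and 0.226) or WT library 2 (0.0508 and 0.0799) was left out.

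Signalling genes downstream of both receptors held no call. Of 16 tested genes of interleukin-33 receptor signalling, 0 rose and 0 fell (median -0.12), with Nfkb1 at 307 to 318 CPM in KO-labelled libraries and 326 to 335 CPM in WT libraries and Tab2 at 257 to 291 and 254 to 257 CPM. Il1rap, the chain that pairs with the Il1rl1 receptor, had 25.9, 25.6 and 32.9 CPM in KO-labelled libraries, against 40.9 and 31.2 CPM in WT libraries, and overlapped (-0.36 ± 0.16, edgeR adjusted p = 0.353, the log2 fold change being -0.14 without WT library 1 and -0.54 without WT library 2). Il33, the ligand, had 0.332, 0 and 0 CPM in KO-labelled libraries and 0 CPM in both WT libraries. Of 20 genes of IgE receptor signalling, 0 rose and 0 fell (median 0.04), with Plcg2 at 494 to 547 CPM in KO-labelled libraries and 570 to 587 CPM in WT libraries and Inpp5d, which restrains the signal, at 362 to 457 and 361 to 367 CPM. Of the interleukin-33 list 2 genes had every KO-labelled library above both WT libraries and 8 every one below, and of the IgE list 3 and 8, beside 16.5% and 16.3% of all genes. At an unadjusted p under 0.05 edgeR gave 2007 of all 14565 genes tested. Beside that share, it gave 3 of the 16 genes of the interleukin-33 list and 5 of the 20 of the IgE list. All of these had a log2 fold change below 0. EdgeR gave 3 of the basophil list, 1 of them above 0, and 1 of the eosinophil list, above 0. Among these 4 lists DESeq2 called 1 gene, Ptprc of the basophil list, and limma with sample weights 1 gene, Irak3 of the interleukin-33 list. In the other lists the unadjusted edgeR count was 3 mast cell granule and surface genes, 1 of them above 0. It was 5 growth factor receptors, 1 of them above 0, and 7 transcription factors, 3 of them above 0.

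Among 20 transcription factors 1 rose and 1 fell (median 0.03), beside 0.79% and 1.18% of all genes. In 3 every KO-labelled library lay above both WT libraries and in 6 every one lay below, beside 16.5% and 16.3% of all genes. Xbp1, which supports secretory cells and eosinophil development in the mouse, rose to 216, 200 and 237 CPM in KO-labelled libraries, against 149 and 146 CPM in WT libraries (log2 fold change 0.56 ± 0.09, edgeR adjusted p = 0.00746). Bhlhe40 fell to 17.996, 13.6 and 17.7 CPM in KO-labelled libraries, against 27.3 and 33.9 CPM in WT libraries (-0.90 ± 0.17, adjusted p = 0.0178). Both calls were lost when KO-labelled library 3 (adjusted p = 0.0524 for Xbp1 and 0.0533 for Bhlhe40), WT library 1 (0.228 and 0.208) or WT library 2 (0.191 and 0.337) was left out. Gata2, a regulator of mast cells and stem cells alike, had 238, 210 and 243 CPM in KO-labelled libraries and 206 and 229 CPM in WT libraries (0.08 ± 0.09, adjusted p = 0.769). Gata1 had 33.4, 29.4 and 46.2 CPM in KO-labelled libraries and 22.2 and 25.9 CPM in WT libraries (0.59 ± 0.19, adjusted p = 0.154), again highest in KO-labelled library 3, without which the log2 fold change was 0.39. Mitf, a transcription factor of mast cells, had 8.25 to 10.7 CPM in KO-labelled libraries and 9.41 to 9.85 CPM in WT libraries (-0.07 ± 0.23, adjusted p = 0.938), and its log2 fold change turned to 0.010 without KO-labelled library 3. Gata1, Gata2, Mitf, Il1rap, Il33 and Itgam were also chosen with their values known.

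**Figure D4:**
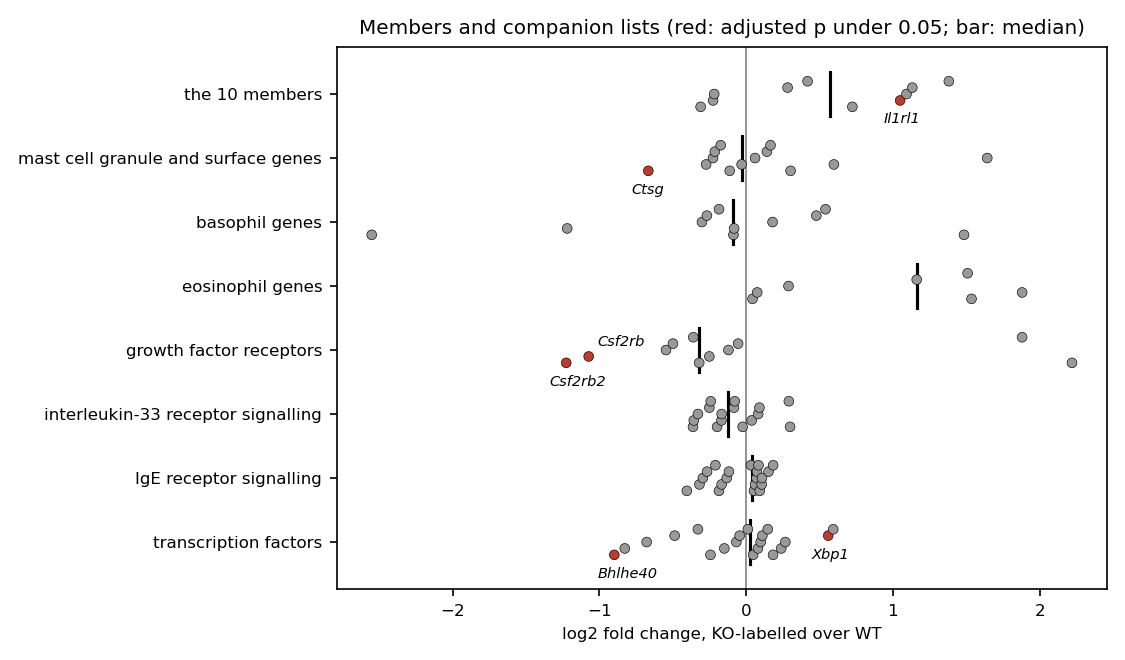
Log2 fold change of KO-labelled over WT libraries (x axis) for the tested genes of each list (rows), with the list median as a bar and genes past the threshold in red. The median was 0.57 for the 10 members and 1.16 for the eosinophil genes, some of which averaged under 1 CPM. Of members and eosinophil genes, Il1rl1 alone passed. The growth factor receptors Csf2rb and Csf2rb2 lay at -1.07 and -1.23.

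Markers of some other cell types also differed between the groups. The shares over all genes are 16.5% with every KO-labelled library above both WT libraries, 16.3% with every one below, 0.79% called higher and 1.18% called lower. The 8 erythroid markers summed to 224 to 318 CPM in KO-labelled libraries and 126 to 137 CPM in WT libraries, with 7 above both WT libraries in every KO-labelled library and 4 called higher. Car1 made up most of that sum, at 126 to 210 CPM in KO-labelled libraries and 79.9 to 80.9 CPM in WT libraries. The 7 neutrophil markers summed to 2562 to 3224 CPM in KO-labelled libraries and 3603 to 3939 CPM in WT libraries, with all 7 below WT and 2 called lower. Mpo made up most of that sum, at 2220 to 2869 CPM in KO-labelled libraries and 3103 to 3443 CPM in WT libraries. The 6 megakaryocyte markers were mixed, 2 being called lower and 0 higher, with 2 below WT in every KO-labelled library and 2, Pf4 (log2 fold change 0.79, edgeR adjusted p = 0.196) and Ppbp (1.46, adjusted p = 0.277), above WT in every one. The abundant Vwf and Itga2b made up most of their sum of 346 to 554 CPM in KO-labelled libraries and 614 to 706 CPM in WT libraries. Of 4 B cell markers and 4 macrophage and dendritic cell markers, 0 were called, with 3 and 2 log2 fold changes above 0. Of 4 T and NK cell markers and 4 endothelial and stromal markers, 1 each was called lower and 0 higher, with 3 and 2 above 0. The part of these cell types in the values of the members was not tested.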

How the data were processed

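Sorted LSK cells gave poly(A) RNA for stranded libraries (TruSeq Stranded mRNA), per the labels' protocols. The authors deposited raw counts in 5 libraries, with 33862 rows, 1 for each RefSeq transcript. STAR, Subread 1.4.5-p1, featureCounts and the builds mm9 and NCBIM37 are named in the submitters' processing notes; settings, strand use and how reads shared by features were handled are not stated there, so overlapping or near-identical genes are uncertain. Names came from RefSeq GRCm38 for 33485 rows and GENCODE M21 for 188; 189 rows matched neither, held 0.362% to 0.459% of counts and were kept under their own identifiers. The row with the most counts was kept for each gene.

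Low genes were removed (filterByExpr) and TMM factors computed in edgeR 4.0.16 (R 4.3.3), whose robust quasi-likelihood test was used, two-sided, threshold 0.05 after Benjamini-Hochberg adjustment; SE is the log2 fold change over the root of its F value. CPM uses the TMM-adjusted library size, and lengths are those of paired GENCODE M21 transcripts. DESeq2 1.42.0 and limma 3.58.1 were alternatives, with other scalings, filters, summed rows, the replicate number as block, and libraries left out in turn. The code was tested on simulated data. The named genes were the members, in each list every gene past the threshold and, where fewer than 2 passed, the 2 most abundant, and the 5 genes nearest in pattern to Il1rl1 and Cpa3; others are stated as chosen later. The members and lists were chosen with earlier results of these data known. Promoters are from RefSeq, GRCm38.p6, with 9 of 10 members matched. Low counts, as for Epx, limit precision. The level of the targeted gene is not reported here.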

Additional observations from a re-analysis of the deposited data

How the results depend on the processing

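The count of members past the threshold was 1, and stayed 1 under 7 other settings with all 5 libraries and without KO-labelled library 1, where the gene was Il1rl1. It was 0 with library totals only, and with 1 library left out it ranged from 0 to 1; without KO-labelled library 2 the 1 gene was Prss34 in place of Il1rl1. The count of companion genes was 5, became 8 with limma and sample weights, and ranged from 0 to 8 with 1 library left out. Over all genes 287 passed, against 575 with DESeq2, 624 with limma and sample weights, 455 with no count filter and 454 at an adjusted p under 0.10, and from 6 to 675 with 1 library left out. Where a WT library was dropped, the remaining 1 was taken to have the variability of the KO-labelled ones. The cause of these differences was not tested.

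In the fit with a replicate block 0 members passed, Il1rl1 having a log2 fold change of 0.98 (edgeR adjusted p = 0.157). In all 160 genes passed, of which 142 were among the 287. KO-labelled library 3 had no WT library of its number, so it added nothing to the difference between groups in that fit. The block fit thus compared libraries 1 and 2 of each group, as did leaving out KO-labelled library 3 (Il1rl1 log2 fold change 0.97). The numbers are not shown to pair the samples: the correlation of deviations from the group means was 0.06 for the libraries numbered 1 and 0.01 for those numbered 2. Under the block the log2 fold change of Siglecf turned to -0.070 and that of Cebpe to -0.61. Without KO-labelled library 3, which is not a separate check, they were -0.053 and -0.44. With 1 library left out Siglecf ranged from -0.053 to 0.22 and Cebpe from -0.44 to 0.44, being at -0.017 without WT library 2. Mitf turned to 0.010 without KO-labelled library 3 and ranged from -0.19 to 0.010 with 1 library left out. None of the other genes among the 39 run under the alternatives changed sign; the genes nearest in pattern were not run. Of their values, 467 kept direction and call, mostly for genes not called in the main fit, which had no call to lose. Only Il1rl1, Ctsg, Csf2rb, Csf2rb2, Bhlhe40, Xbp1 and Il1r1 were called there, and all 24 values that lost the call are theirs. A call was gained in 6 values. With the block the calls of Bhlhe40 (edgeR adjusted p = 0.0544) and Il1r1 (0.0605) were lost and that of Xbp1 was not (0.0397). Counts near the floor of 3 limit the mature mast cell genes.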
